A study of Mus musculus with 8 samples.

Results

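The comparison described here is that of primary mouse embryonic fibroblasts heterozygous for Tfam (Tfam+/-) with wild type (WT) fibroblasts, 4 of the 8 RNA sequencing libraries of the series. The libraries were chosen by genotype alone, 2 per genotype, and the genes by level: 13267 of the 24972 genes in the deposited table had a mean of at least 10 normalized counts over the 8 libraries and were tested. Weight is given to genes that are not interferon-stimulated, and to genes that fell. The other 4 libraries, of cells lacking Zbp1 (Zbp1-/-) and of cells with both changes (Tfam+/-Zbp1-/-), enter the estimate of spread and serve as a second setting for the loss of 1 Tfam allele. All cells came from embryos at day 14, were untreated, and were grown for 2 passages before total RNA was taken. The sources used here do not give the Tfam or Zbp1 allele used, or say if a genotype's 2 libraries trace to different embryos, so the tests measure only the spread between these libraries, which may be technical. A primary culture of this kind holds every cell type that survives dissociation of the embryo, and in such bulk RNA fewer cells of a type and less RNA per cell cannot be told apart.

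TFAM is a mitochondrial protein that packages mitochondrial DNA and is needed for its transcription and upkeep. Loss of 1 allele is a known way to stress mitochondrial DNA in fibroblasts, and such cells are known for raised transcription of interferon-stimulated genes, the antiviral programme switched on by STAT and IRF factors. ZBP1 is an innate sensor of nucleic acids in the Z conformation and is itself interferon-stimulated. Embryonic fibroblasts also carry programmes that reflect where in the embryo they came from, among them HOX genes, limb and cartilage genes, and secreted matrix and signalling proteins.

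Of the 13267 genes, 97 passed the test (0.731%; limma, two-sided, Benjamini-Hochberg adjusted p under 0.05), 75 of them higher in Tfam+/- (0.565%) and 22 lower (0.166%). In each of the 97 the Tfam+/- libraries lay on the same side of both WT libraries. Of the 75 rises, 63 belonged to a list of interferon-stimulated genes and 12 did not, and none of the 22 falls was on that list. The widest falls were in Cxcl15, a secreted chemokine (-2.42), Scn3a, a sodium channel (-2.06), and Enpep, a cell-surface peptidase (-2.04). The median log2 change over all genes tested was -0.01.

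The sequences upstream of 6 of these genes are printed to show the contrast between them. The first carries the interferon-stimulated response element, the binding site of the factors that act downstream of interferon. The second belongs to a neighbour of the first that rose with it without this element, and the other 4 belong to genes that fell and carry a TATA box. The sequences are the 250 bases before the annotated start of each gene, from RefSeq on GRCm38.p6 (mm10), written in the direction of transcription. Capitals mark the element (GAAA, any 2 bases, GAAA) in the first and the TATA box TATAAA in the last 4, either as written or as its reverse complement. Their places are chr4:156200819-156201068 (minus strand) for Isg15, chr4:156203034-156203283 (plus) for AW011738, chr5:90794284-90794533 (plus) for Cxcl15, chr3:129332750-129332999 (minus) for Enpep, chr11:67199852-67200101 (plus) for Myh1 and chr10:34389731-34389980 (plus) for Col10a1.
Isg15: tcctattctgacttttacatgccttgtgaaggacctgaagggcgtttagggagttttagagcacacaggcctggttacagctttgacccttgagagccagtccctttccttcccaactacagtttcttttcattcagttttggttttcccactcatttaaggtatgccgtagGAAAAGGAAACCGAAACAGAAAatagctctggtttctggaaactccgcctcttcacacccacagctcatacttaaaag
AW011738: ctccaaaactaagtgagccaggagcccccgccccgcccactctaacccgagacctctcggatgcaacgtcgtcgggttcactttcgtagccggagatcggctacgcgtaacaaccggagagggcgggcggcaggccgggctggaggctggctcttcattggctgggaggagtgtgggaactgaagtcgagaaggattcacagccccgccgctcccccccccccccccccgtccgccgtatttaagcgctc
Cxcl15: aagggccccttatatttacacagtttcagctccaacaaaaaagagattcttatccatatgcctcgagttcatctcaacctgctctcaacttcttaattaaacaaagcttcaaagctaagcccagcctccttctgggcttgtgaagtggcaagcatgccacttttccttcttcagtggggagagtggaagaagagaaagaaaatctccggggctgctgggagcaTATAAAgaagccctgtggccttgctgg
Enpep: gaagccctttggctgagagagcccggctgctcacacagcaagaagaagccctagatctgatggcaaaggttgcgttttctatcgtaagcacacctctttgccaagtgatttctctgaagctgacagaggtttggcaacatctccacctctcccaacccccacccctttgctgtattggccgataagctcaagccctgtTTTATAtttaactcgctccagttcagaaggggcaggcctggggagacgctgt
Myh1: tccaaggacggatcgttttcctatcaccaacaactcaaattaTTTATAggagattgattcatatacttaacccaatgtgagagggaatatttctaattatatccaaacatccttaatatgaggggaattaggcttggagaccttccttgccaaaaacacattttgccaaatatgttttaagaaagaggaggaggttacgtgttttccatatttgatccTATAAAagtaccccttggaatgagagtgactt
Col10a1: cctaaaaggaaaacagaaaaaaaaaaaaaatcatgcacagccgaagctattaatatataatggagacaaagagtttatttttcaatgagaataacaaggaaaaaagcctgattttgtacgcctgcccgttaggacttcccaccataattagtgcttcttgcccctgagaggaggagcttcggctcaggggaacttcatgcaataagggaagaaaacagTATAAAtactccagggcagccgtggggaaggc

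Promoter sequence, from 250 bases before to 50 after the start, was at hand for 10384 of the genes tested, and both strands were searched. The response element was found in 3.708% of these promoters, in 24 of the 47 listed rises with a promoter (51.06%), in 1 of 9 rises outside the list (Tenm4, 11.11%) and in 0 of 15 falls. TATAAA was found in 8.831% of all promoters and in 6 of the 15 falls (40%), namely Enpep, Myh1, Erg, Cxcl15, Fzd1 and Col10a1, and it was also in 10 of the 47 listed rises (21.28%) and 2 of the 9 others (22.22%). Its first base lay 27 and 32 bases before the annotated start in Cxcl15 and Col10a1, but 52 in Enpep and 202 in Fzd1. Of the 2 matches in Myh1, the first lay 208 bases before the start. The second lay at the same distance as the match in Col10a1. The GC box GGGCGG was in 69.33% of all promoters, in 7 of the 15 falls (46.67%), in 40.43% of the listed rises and in 22.22% of the others. A match is a description of letters, and nothing about a factor follows from it. The 8 motifs searched were chosen with earlier results of these data known.

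The targeted gene was lower in the libraries labelled Tfam+/-, as their label says. Tfam (chromosome 10, 71225468 to 71238328) stood at 629 and 610 normalized counts in WT and at 278 and 365 in Tfam+/-. The groups did not overlap, and the log2 difference of -0.96 ± 0.21 (SE) missed the threshold after adjustment over all genes (limma, adjusted p = 0.16). Zbp1 was at 7.34 and 3.19 in WT and at 64.6 and 69.8 in Tfam+/-, again without overlap, a difference of 3.53 ± 0.60 (adjusted p = 0.076). In the other genotypes Tfam was at 675 and 471 (Zbp1-/-) against 424 and 375 (Tfam+/-Zbp1-/-), also without overlap, a difference of -0.50 ± 0.21.

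Genes beside Tfam showed no call in the test used so far. Within 5 Mb of it, 41 genes were tested, of which 13 lay below WT in both libraries (31.7%, against 25.5% of all genes) and 6 above, and 0 passed the test (6 at an unadjusted p under 0.05), with a median of -0.11. The closest genes tested on either side were Bicc1, an RNA-binding protein of the planar polarity pathway, at -0.42 ± 0.14, and Ube2d1, a ubiquitin-conjugating enzyme, at -0.34 ± 0.19. Fam13c, further out, had the widest difference of the 6 nearest genes, -0.90 ± 0.22 (limma, adjusted p = 0.22). A limma fit with a term shared by 2 libraries, described in the next paragraph, called 3 of the 41 lower and 2 higher. Over all genes that fit called 8.20% lower and 7.39% higher. Fam13c (-0.67, adjusted p = 1.8e-04) and Bicc1 (-0.28, adjusted p = 8.4e-05) were among those it called lower.

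Libraries of the same genotype differed among themselves. Totals were 16752835 to 17198833 normalized counts in the libraries with Zbp1 and 17820339 to 18303036 in those without, with 16051 to 16261 genes above 0. The correlation of log2 levels between the libraries of a genotype, across genes, was 0.992 in WT, 0.973 in Tfam+/-, 0.975 for Zbp1-/- and 0.992 for Tfam+/-Zbp1-/-. Tfam+/- replicate 1 and Zbp1-/- replicate 2 carry a shift in common: a term shared by these 2 libraries, chosen in an earlier analysis after the data had been seen, was itself called in 8669 of the 13267 genes. With that term in the fit, 981 genes were called higher in Tfam+/- (7.39%) and 1088 lower (8.20%). All 97 genes kept their call and sign with it. Those 97 had been chosen for a wide difference against their spread, and this fit calls far more genes. It is thus little further check of them. Leaving out both libraries leaves 1 Tfam+/- library and takes the spread from WT and Tfam+/-Zbp1-/- alone. The SD of the replicate difference was 0.31 and 0.30 in these genotypes, against 0.56 in Tfam+/- and 0.53 in Zbp1-/-. The signs of the 97 were then fixed by the lack of overlap, so that fit is no further check of them. Of the 22 falls, 17 were lower in Tfam+/- replicate 1 than in replicate 2 (6683 of all genes were), and the shared term was called in 4.

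**Figure D1:**
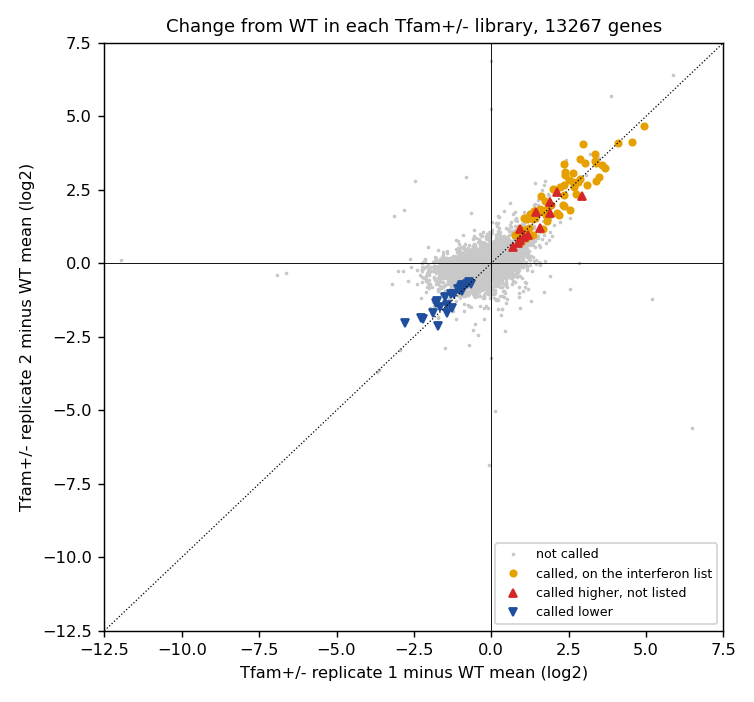
Log2 change of each Tfam+/- library from the mean of the WT libraries, replicate 1 on the horizontal and replicate 2 on the vertical axis, one point per gene (13267). The called genes lie near the dotted line of equal change, while uncalled genes spread more widely along replicate 1. A call needs little spread within genotypes, so the nearness of called genes to the line follows largely from the test.

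Enzymes on the cell surface or released from it made up 5 of the 22 falls. Enpep (chromosome 3, 129269177 to 129332749), aminopeptidase A, which trims angiotensin peptides, was at 389 and 407 in WT and at 85.9 and 107 in Tfam+/-. It fell by 2.04 ± 0.15 on the log2 scale (limma, adjusted p = 0.0032), the smallest adjusted p among the falls, and its WT libraries were the highest and its Tfam+/- libraries the lowest of the 8. Enpp2, the phosphodiesterase autotaxin that makes lysophosphatidic acid, stood at 401 and 379 against 113 and 152, a fall of 1.57 ± 0.16 (adjusted p = 0.010). Its relative Enpp1, which makes pyrophosphate, a brake on mineral deposition, was at 703 and 681 against 357 and 416 (fell by 0.84 ± 0.12, adjusted p = 0.039). Neither pair of groups overlapped. Nt5e, the 5′-nucleotidase CD73 that produces adenosine, had 135 and 122 in WT against 60.5 and 70.3 (fell by 0.97 ± 0.14, adjusted p = 0.044). Aoc3, an amine oxidase, was at 67.5 and 75.0 against 30.1 and 34.2 (fell by 1.12 ± 0.17, adjusted p = 0.046), with all 4 libraries of both genes on their own side. The list of 17 cell-surface peptidases tested held 1 of these calls (Enpep). In both libraries 9 members were below WT (25.5% of all genes were) and 1 above (23.3%). The median of -0.20 reached -0.32 without Tfam+/- replicate 1 and -0.35 at most with any library left out. Mme (neprilysin), at 1029 and 1060 against 312 and 668, was uncalled (-1.19 ± 0.41, adjusted p = 0.47). With 1 library left out, the log2 change of the 5 enzymes ranged over -2.20 to -1.88 (Enpep), -1.77 to -1.36 (Enpp2), -0.95 to -0.73 (Enpp1), -1.08 to -0.86 (Nt5e) and -1.21 to -1.03 (Aoc3). No fall in this group or the groups that follow held its call without WT replicate 1 or without WT replicate 2.

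Secreted signals fell in 4 genes. Cxcl15 (chromosome 5, 90794534 to 90803067), a neutrophil chemokine, was at 33.7 and 32.2 in WT and at 3.87 and 7.25 in Tfam+/-, the widest of the falls at 2.42 ± 0.28 (limma, adjusted p = 0.019). Cxcl12, the ligand of CXCR4 and an abundant product of mesenchyme, was at 9722 and 10056 against 5056 and 5616, a fall of 0.89 ± 0.11 (adjusted p = 0.020). In both chemokines the Tfam+/- libraries were the lowest of the 8. Igfbp3, which binds insulin-like growth factors, stood at 4493 and 4602 against 2384 and 2358 (fell by 0.94 ± 0.08, adjusted p = 0.0069), with the libraries of each genotype close together. Angptl1, an angiopoietin-like protein, was at 106 and 93.4 against 31.2 and 35.1 (fell by 1.56 ± 0.19, adjusted p = 0.020). The 20 chemokines tested did not share a direction: 10 were above WT in both libraries and 5 below, 3 were called higher and 2 lower, and the median was 0.27. Ccl5, a chemokine also counted as interferon-stimulated, rose from 1.96 and 1.86 to 29.7 and 29.8 (3.40 ± 0.38, adjusted p = 0.016). With 1 library left out, the falls ranged over -2.80 to -2.04 (Cxcl15), -0.97 to -0.82 (Cxcl12), -0.96 to -0.92 (Igfbp3) and -1.65 to -1.47 (Angptl1).

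Transcription factors that pattern the embryo accounted for 3 falls. Sim2 (chromosome 16, 94085104 to 94127032), a bHLH-PAS factor, was at 465 and 480 in WT and at 174 and 178 in Tfam+/-, a fall of 1.42 ± 0.12 (limma, adjusted p = 0.0048). Foxd1, a forkhead factor of kidney stroma and other mesenchyme, stood at 108 and 122 against 47.4 and 39.6 (fell by 1.39 ± 0.20, adjusted p = 0.039). Erg, an ETS factor of endothelium and of joint cartilage, was at 150 and 147 against 59.6 and 71.5 (fell by 1.17 ± 0.17, adjusted p = 0.042). In all 3 both Tfam+/- libraries were the lowest of the 8, and in Sim2 and Foxd1 both WT libraries were the highest. Of 8 endothelial markers tested, 2 were below WT in both libraries, Erg itself and Tek (-0.75, not called), and 5 were above. The summed level of 13 endothelial markers, Erg included, was 1774 and 1778 in WT and 2109 and 2108 in Tfam+/-. Most of that sum came from Flt1 (752 and 774 against 816 and 924) and Eng (454 and 439 against 737 and 572). Cdh5 (2.94 and 2.79 against 3.32 and 2.97) and Pecam1 (0.95 and 1.96 against 0 and 1.95) were close to 0. Of 60 mesenchyme patterning factors tested, 2 were called lower (Sim2 and Foxd1) and 0 higher, with 23 below WT in both libraries and 21 above. Leaving out 1 library gave -1.44 to -1.40 for Sim2, -1.51 to -1.26 for Foxd1 and -1.30 to -1.05 for Erg.

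Receptors, channels and adhesion proteins formed a further group. Scn3a, a voltage-gated sodium channel, was at 49.1 and 39.0 in WT and at 8.33 and 11.4 in Tfam+/- (fell by 2.06 ± 0.31, limma, adjusted p = 0.046). Piezo2, a mechanically gated cation channel, stood at 1150 and 1145 against 575 and 605 (fell by 0.96 ± 0.10, adjusted p = 0.012). The groups did not overlap in either channel, and Piezo2 varied between libraries of a genotype by far less than between genotypes. Tnfrsf19, a TNF receptor family member expressed in progenitor cells, was at 26.8 and 18.0 against 5.28 and 6.04 (fell by 1.79 ± 0.27, adjusted p = 0.046). Fzd1, a WNT receptor, was at 1218 and 1153 against 746 and 725 (fell by 0.69 ± 0.10, adjusted p = 0.039). Fat4, a giant cadherin of the planar polarity pathway, was at 3574 and 3491 against 2040 and 2140 (fell by 0.76 ± 0.09, adjusted p = 0.017). All 3 were lower in Tfam+/- than in any library of the other genotypes. Tspan18, a tetraspanin, fell by 1.55 ± 0.23 (94.1 and 91.2 against 33.9 and 28.3, adjusted p = 0.046), and Frmd5, a FERM domain protein, by 1.32 ± 0.19 (69.0 and 82.7 against 26.0 and 33.9, adjusted p = 0.043). Among 21 voltage-gated sodium and calcium channels tested Scn3a was the 1 call, with 7 members below WT in both libraries and 3 above. With 1 library left out the changes ranged over -2.26 to -1.86 (Scn3a), -0.996 to -0.923 (Piezo2), -2.07 to -1.51 (Tnfrsf19), -0.73 to -0.65 (Fzd1), -0.79 to -0.72 (Fat4), -1.68 to -1.42 (Tspan18) and -1.50 to -1.13 (Frmd5).

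The remaining 3 falls were in a muscle myosin and 2 matrix genes. Myh1, a fast skeletal muscle myosin heavy chain, was at 68.4 and 67.5 in WT and at 19.7 and 14.7 in Tfam+/- (fell by 1.93 ± 0.22, limma, adjusted p = 0.017). Of 8 skeletal muscle markers tested, 3 were above WT in both libraries and 0 below. The summed level of 25 markers was 1223 and 1259 in WT and 2033 and 1537 in Tfam+/-. Most of that sum came from Acta1 (478 and 470 against 853 and 646) and Des (561 and 610 against 899 and 588). Myod1 and Myog were close to 0. Abi3bp, a matrix protein that binds ABI3, was at 652 and 654 against 193 and 269 (fell by 1.51 ± 0.19, adjusted p = 0.025). Col10a1, the collagen of hypertrophic cartilage, was at 480 and 462 against 284 and 304 (fell by 0.68 ± 0.10, adjusted p = 0.046). No library of one group reached the other in these genes. Without 1 library they ranged over -2.13 to -1.73 (Myh1), -1.75 to -1.28 (Abi3bp) and -0.73 to -0.63 (Col10a1).

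**Figure D2:**
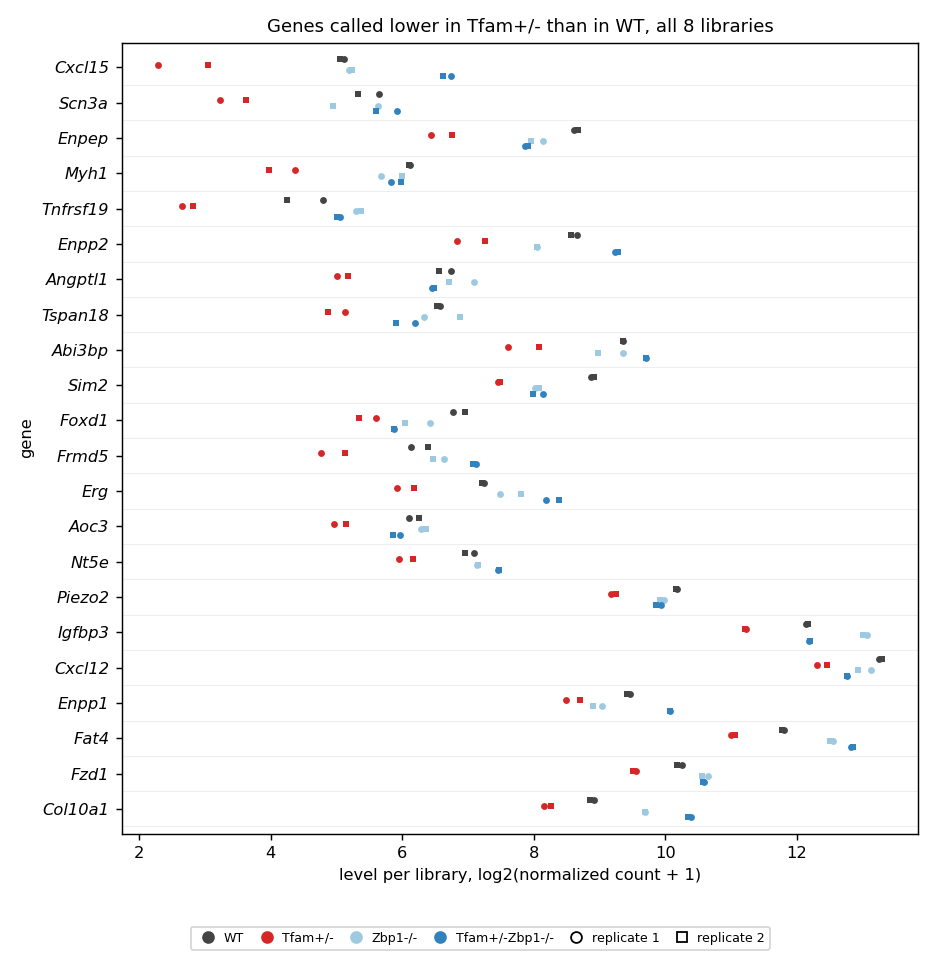
Level of the 22 genes that fell, log2(normalized count + 1) on the horizontal axis, in each of the 8 libraries, genes ordered by size of change; colour gives the genotype, and circles and squares replicates 1 and 2. The red Tfam+/- points are the lowest of the 8 in every gene shown, from Cxcl15 (3.87 and 7.25 normalized counts) to Col10a1 (284 and 304).

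The position of Tfam+/- among all 4 genotypes differed between falls and rises. In all 22 falls both Tfam+/- libraries lay beyond all 6 other libraries, and in 6 of them (Enpep, Sim2, Cxcl12, Piezo2, Myh1 and Foxd1) the WT libraries also lay beyond all others on the opposite side. For the 12 rises outside the interferon list the pattern was different: in 8 only the WT libraries stood apart from the other 6, in 2 only the Tfam+/- libraries, and in 2 both. Over all genes tested, 13.32% had only the WT libraries apart and 12.53% only the Tfam+/- libraries. The falls thus marked Tfam+/- against the 3 other genotypes, while most unlisted rises marked WT against the 3 others. These counts describe genes chosen for the difference between Tfam+/- and WT and were not tested.

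Loss of 1 Tfam allele without Zbp1 could be read in the 4 other libraries, whose levels do not enter the difference from WT but whose spread enters its test (1 fall was called when only WT and Tfam+/- were fitted). Between Tfam+/-Zbp1-/- and Zbp1-/-, 10 of the 22 genes were below 0 and 12 above, where 47.6% of all genes tested were below 0. Limma called 3 of the 22 there, against 0.415% of all genes. Both tests use the same spread, so genes chosen for a small spread in one are called more readily in the other. Igfbp3, at 8576 and 8252 in Zbp1-/- and at 4657 and 4674 in Tfam+/-Zbp1-/-, fell by 0.85 ± 0.08 (adjusted p = 0.035), close to its fall of 0.94 in the presence of Zbp1. The interaction for Igfbp3, the difference between these 2 changes, was 0.09 ± 0.12 (adjusted p = 0.63). Enpp2 (264 and 262 against 603 and 621) and Enpp1 (524 and 477 against 1074 and 1075) rose instead, by 1.22 ± 0.16 (adjusted p = 0.045) and 1.10 ± 0.12 (adjusted p = 0.035). All 3 calls were lost without any 1 of the WT, Zbp1-/- or Tfam+/-Zbp1-/- libraries, with values of -0.88 to -0.82, 1.20 to 1.24 and 1.03 to 1.17.

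Other falls took a range of values in that setting. Cxcl15 was at 35.6 and 36.7 in Zbp1-/- and at 106 and 97.6 in Tfam+/-Zbp1-/-, a difference of 1.47 ± 0.28 (limma, adjusted p = 0.12). Sim2 stood at 257 and 270 against 282 and 251, with a difference of 0.01 ± 0.12. Myh1, at 49.9 and 62.5 against 55.8 and 61.8, differed by 0.07 ± 0.22 with overlapping libraries. Sim2 and Myh1 thus differed there by less than their SE, and the interaction was called for Sim2 (1.43 ± 0.17, adjusted p = 0.025; 0.663% of all genes were called) and not for Myh1 (2.00 ± 0.31, adjusted p = 0.055). The Sim2 interaction ranged over 1.35 to 1.52 with 1 library left out and kept its call in 1 of these 8 fits. Angptl1 (-0.43 ± 0.19), Tspan18 (-0.55 ± 0.23) and Aoc3 (-0.42 ± 0.17) were below 0 without a call.

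**Figure D3:**
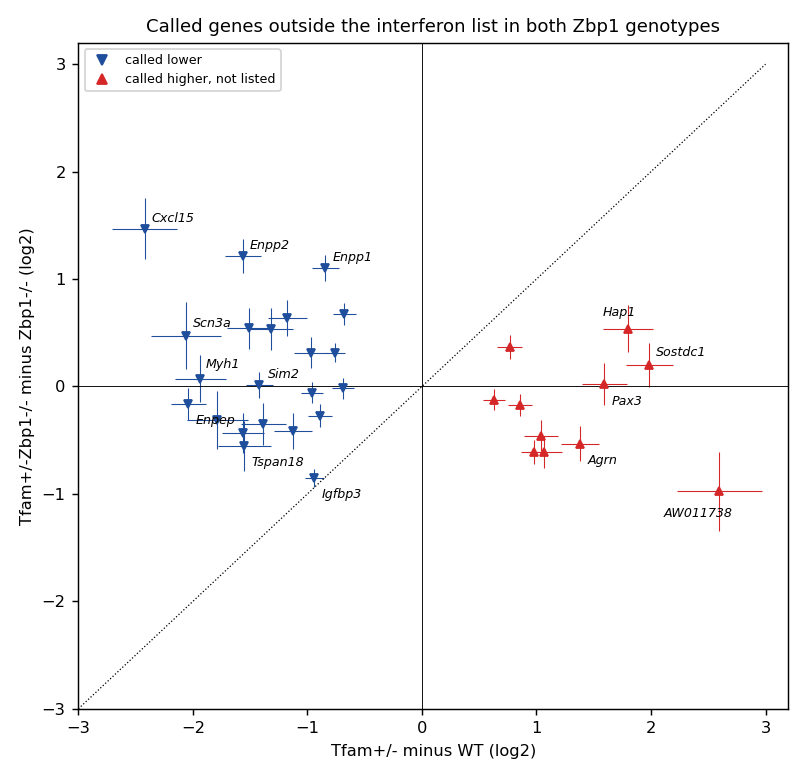
Log2 change with loss of 1 Tfam allele in the presence of Zbp1 (horizontal) and without Zbp1 (vertical) for the 22 falls and for the 11 unlisted rises without near-identical copies; bars are SE and the dotted line marks equal change. Igfbp3 (-0.94 and -0.85) lies on the line, while Cxcl15, Enpp2 and Enpp1 lie above the horizontal zero line.

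Among the rises outside the interferon list, 2 were immediate neighbours of Isg15 on chromosome 4. Isg15 (156199424 to 156200818), a ubiquitin-like protein induced by interferon, rose from 49.0 and 71.7 to 1410 and 1038 (4.33 ± 0.25, limma, adjusted p = 0.0016). Agrn (156165290 to 156197533), 1891 bases away, encodes the matrix proteoglycan agrin and rose from 1219 and 1228 to 3639 and 2799 (1.38 ± 0.16, adjusted p = 0.020). On the other side AW011738, a gene without an assigned role, 2466 bases away, rose from 7.77 and 6.48 to 60.3 and 38.1 (2.60 ± 0.37, adjusted p = 0.039). All 3 were higher in the Tfam+/- libraries than in any other. Further out Plekhn1 (20638 bases away) was at 47.6 and 48.7 against 91.7 and 72.3, a difference of 0.75 ± 0.20 that was not called (adjusted p = 0.30), and Klhl17 and Noc2l were also above WT in both libraries without a call. No source used here says if strand entered the counting, so reads running past the end of one gene into the next cannot be told apart from its own transcripts. Agrn lost its call without Tfam+/- replicate 1, either WT library or either Tfam+/-Zbp1-/- library (1.19 to 1.57), and AW011738 without any 1 library (2.27 to 2.92), while Isg15 kept its call throughout (4.06 to 4.60).

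Genes of neural crest, muscle precursors and peripheral nerve stood among the other rises. Pax3 (chromosome 1, 78101267 to 78197136), a factor of neural crest and muscle precursors, was at 49.0 and 43.5 in WT and at 126 and 158 in Tfam+/- (1.59 ± 0.19, limma, adjusted p = 0.021). Its level was 150 and 119 with Zbp1 lost and 127 and 146 with both changes, so that WT alone was low. Its relative Pax7, below the level filter and chosen after its values were seen, was listed at 0 in both WT libraries and at 12.8 and 8.46 in Tfam+/-. Gap43, a growth cone protein, rose from 594 and 548 to 1178 and 1070 (0.97 ± 0.11, adjusted p = 0.017). Apod, a lipocalin of nerve sheath and fibroblasts, rose from 117 and 141 to 294 and 248 (1.07 ± 0.15, adjusted p = 0.039). Neither pair of groups overlapped. Apod was at 341 and 370 in Zbp1-/- and at 224 and 241 in Tfam+/-Zbp1-/-, so that here too WT alone was low. The list of neural crest and Schwann cell markers, which holds none of these genes, did not follow: of 11 tested, limma called 0 (3 at an unadjusted p under 0.05), 3 were above WT in both libraries and 5 below, and the summed level of its 14 members was 834 and 823 in WT against 641 and 853. Fabp7, a Schwann cell precursor marker, was at 39.8 and 36.9 against 16.8 and 15.1 (-1.21 ± 0.22, adjusted p = 0.091). Without 1 library Pax3 ranged over 1.43 to 1.76, Gap43 over 0.91 to 1.04 and Apod over 0.94 to 1.20, each uncalled without either WT library, among others.

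Matrix and signalling genes made up most of the rest. Sostdc1, a secreted antagonist of BMP and WNT, rose from 8.18 and 7.80 to 32.5 and 36.6 (1.98 ± 0.21, limma, adjusted p = 0.012). Tnn, the matrix protein tenascin-N, rose from 741 and 738 to 1335 and 1185 (0.77 ± 0.11, adjusted p = 0.042), and Tenm4, a teneurin of cell contacts, from 357 and 344 to 661 and 610 (0.85 ± 0.10, adjusted p = 0.021). In these 3 genes the cells without Zbp1 were in the same range or higher: Sostdc1 ran from 49.0 to 62.9 there, Tnn from 1684 to 2309 and Tenm4 from 639 to 740. Mmp3, stromelysin, rose from 176 and 195 to 355 and 414 (1.04 ± 0.15, adjusted p = 0.039). Gpnmb, a glycoprotein of macrophages and pigment cells, rose from 2923 and 2829 to 4702 and 4217 (0.63 ± 0.10, adjusted p = 0.047). In Mmp3 and Gpnmb too WT alone was low. Mmp3 was at 368 and 357 in Zbp1-/- and at 291 and 240 in Tfam+/-Zbp1-/-. Gpnmb was at 4597 and 4590 in Zbp1-/- and at 4145 and 4296 in Tfam+/-Zbp1-/-. Hap1, a partner of huntingtin, rose from 14.7 and 14.0 to 56.4 and 48.7 (1.80 ± 0.22, adjusted p = 0.020), and here the Tfam+/- libraries were the highest of the 8. The last of the 12, Xlr3b, went from 8.14 and 10.7 to 44.2 and 54.6 (2.28 ± 0.28, adjusted p = 0.021); it has near-identical copies on the X chromosome, so its value is uncertain. All of them lost their call without either WT library, with ranges of 1.90 to 2.07 (Sostdc1), 0.68 to 0.85 (Tnn), 0.80 to 0.91 (Tenm4), 0.93 to 1.15 (Mmp3), 0.55 to 0.71 (Gpnmb), 1.70 to 1.90 (Hap1) and 2.10 to 2.46 (Xlr3b).

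The interferon response is given briefly, since it is the base against which the rest is read. Of 237 interferon-stimulated genes tested, 175 were above WT in both Tfam+/- libraries and 15 below, 63 were called higher, and the median log2 change was 0.72. Over all genes 23.3% were above, 25.5% below and 0.565% called higher. Usp18, the protease that removes ISG15, went from 26.4 and 21.3 to 761 and 625 (4.81 ± 0.21, limma, adjusted p = 8.0e-04). Oasl2, an oligoadenylate synthetase-like protein, rose from 29.6 and 51.2 to 680 and 686 (4.10 ± 0.25, adjusted p = 0.0017), and Rtp4 from 39.2 and 27.7 to 348 and 446 (3.54 ± 0.27, adjusted p = 0.0034). Rtp4 lost its call without WT replicate 2 (adjusted p = 0.052; 3.30 to 3.78 over all libraries left out).

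Cartilage, joint and bone genes lay below WT as a list. Of 25 tested, 21 were below both WT libraries in both Tfam+/- libraries (25.5% of all genes were) and 0 above, with a median of -0.58, or -0.56 with the shared term. Col10a1 was the 1 member that passed the test (0.166% of all genes were called lower), and 13 were called lower with the shared term (8.20% of all genes). The median was -0.46 without Tfam+/- replicate 1 and -0.73 without replicate 2. Comp, a cartilage matrix protein, was at 27.7 and 44.7 in WT and at 15.5 and 8.64 in Tfam+/- (-1.52 ± 0.37, limma, adjusted p = 0.23). Hapln1, which links hyaluronan to aggrecan, was at 37.9 and 39.3 against 8.19 and 24.8 (-1.36 ± 0.48, adjusted p = 0.47), and Col9a2, a cartilage collagen, at 14.4 and 18.4 against 5.90 and 6.72 (-1.24 ± 0.28, adjusted p = 0.18). In all 3 the Tfam+/- libraries were the lowest of the 8.

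The regulators of chondrocytes lay below WT to different degrees, without a call. Sox5, a partner of SOX9, was at 57.4 and 77.4 against 19.6 and 40.3 (-1.21 ± 0.37, limma, adjusted p = 0.40). The next genes were chosen after their values were seen. Sox6, the other partner, was at 164 and 174 against 71.2 and 79.3 (-1.16 ± 0.21, adjusted p = 0.088). Sox9, the master factor, was at 289 and 294 against 179 and 257 (-0.44 ± 0.23), and Col2a1, the main collagen of cartilage, at 884 and 913 against 971 and 654, with overlapping groups. The defining collagen of the tissue thus did not separate the genotypes, while Col9a1, Col9a2, Col9a3 and Col11a1, collagens that accompany it, lay below WT without overlap and Col11a2 (0.14) overlapped as well. Prg4, the lubricin of the joint surface, was at 182 and 211 against 106 and 125 (-0.76 ± 0.17, adjusted p = 0.19), and in the cells without Zbp1 it went from 188 and 144 to 600 and 627 (rose by 1.90 ± 0.17, adjusted p = 0.029; 1.70 to 2.09 with 1 library left out, uncalled without 6 of the 8 in turn). The median of the 25 genes in that setting was 0.28.

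**Figure D4:**
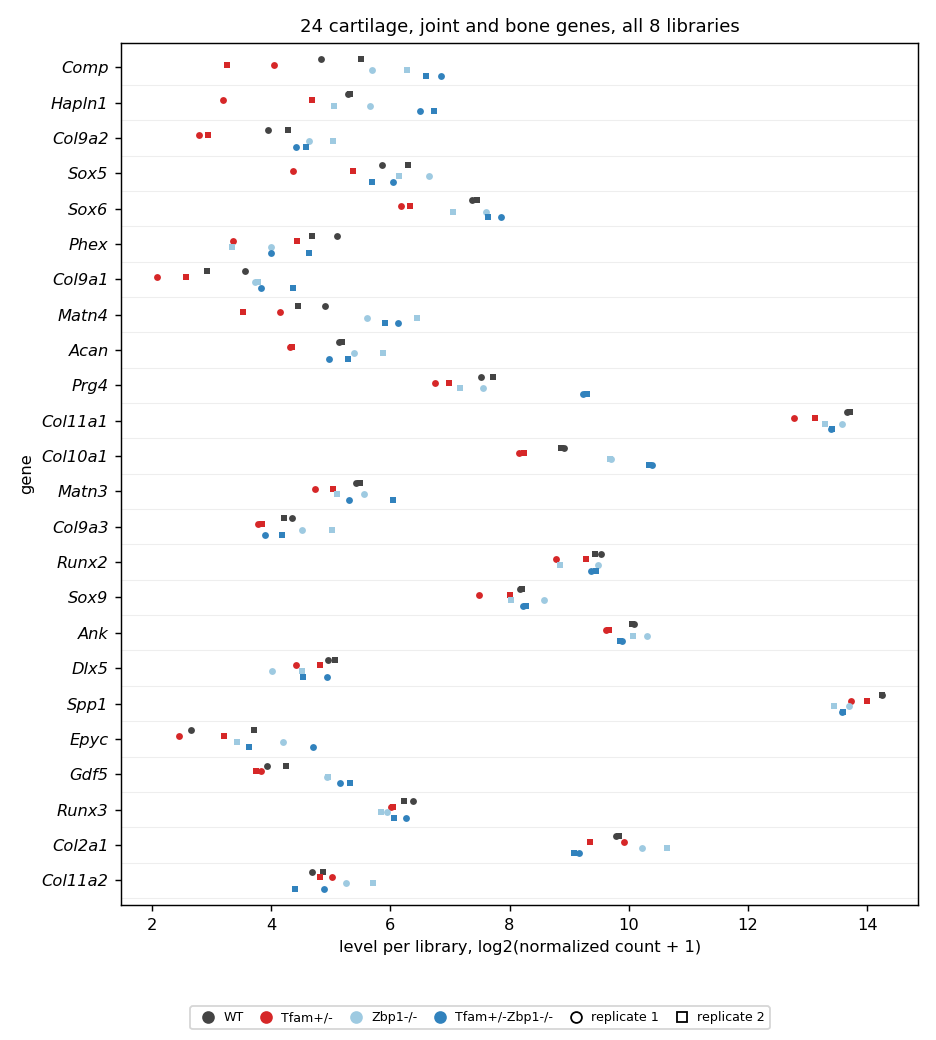
Level of 24 of the 25 cartilage, joint and bone genes tested, log2(normalized count + 1) on the horizontal axis, in each of the 8 libraries, ordered by the change in Tfam+/-; colour gives the genotype, and circles and squares replicates 1 and 2. Red Tfam+/- points lie left of both black WT points in 21 genes and overlap them in Epyc, Col2a1 and Col11a2.

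HOX genes, which record position along the body and limb axes, leaned below WT as a list. Of 34 tested, 20 were below WT in both libraries (25.5% of all genes were) and 5 above (23.3%), and the median was -0.32. Limma called 0 of them (13 at an unadjusted p under 0.05). With the shared term 11 were called lower (8.20% of all genes) and 1 higher (7.39%). In the Hoxa cluster 9 of 11 were below and 0 above (median -0.62), against 2 of 8 below in Hoxb, 5 of 7 in Hoxc and 4 of 8 in Hoxd; a difference between clusters was not tested. Hoxa5, a gene of the trunk, was at 239 and 265 in WT and at 127 and 136 in Tfam+/- (-0.93 ± 0.16, limma, adjusted p = 0.079). Hoxd13, a gene of the distal limb, stood at 998 and 871 against 367 and 499 (-1.12 ± 0.24, adjusted p = 0.16). Hoxd4, from the opposite end of the same cluster, was higher, at 25.5 and 30.0 against 62.0 and 50.2 (0.99 ± 0.22, adjusted p = 0.17). None of these groups overlapped. Between Tfam+/-Zbp1-/- and Zbp1-/- the list median was -0.61, and 24 of the 34 were below 0 (47.6% of all genes were). By cluster that median was -0.04 in Hoxa, -1.10 in Hoxb, -0.93 in Hoxc and 0.60 in Hoxd. In cells without Zbp1, Hoxd13 went from 839 and 531 to 1959 and 2053, and its interaction of 2.71 ± 0.34 was called (adjusted p = 0.030; 2.38 to 3.04 with 1 library left out, uncalled without 6 of the 8 in turn).

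Matrix glycoproteins and proteoglycans, imprinted growth genes and adipocyte genes also leaned below WT. Over all genes, 25.5% were below in both libraries and 23.3% above. With the shared term 8.20% of all genes were called lower and 7.39% higher. Of 67 matrix glycoproteins and proteoglycans, 34 were below in both libraries and 11 above, 1 was called lower (Igfbp3) and 1 higher (Tnn), and the median was -0.17. Ogn, osteoglycin, was at 7017 and 6920 in WT and at 1487 and 4471 in Tfam+/- (-1.43 ± 0.61, limma, adjusted p = 0.56), with the libraries of Tfam+/- far apart. Igfbp2 was the widest difference upward in that list, at 534 and 563 against 1768 and 1063 (1.32 ± 0.28, adjusted p = 0.16). Of 23 imprinted growth genes 13 were below and 3 above, limma called 0 (5 at an unadjusted p under 0.05), and the median was -0.39, or -0.23 without Tfam+/- replicate 1. Mest, an imprinted hydrolase of mesoderm, was at 3472 and 3301 against 1381 and 1971 (-1.04 ± 0.21, adjusted p = 0.12). With the shared term 14 imprinted genes were called lower and 1 higher. Of 10 adipocyte genes 6 were below and 1 above, with 0 called by limma (3 at an unadjusted p under 0.05) and a median of -0.41. Of 39 collagens, 10 were below in both libraries and 5 above, and 1 was called, Col10a1. Their median was -0.05 (-0.11 to 0.08 with 1 library left out). With the shared term 16 collagens were called lower and 1 higher, and the median was -0.10. All 14 fibroblast markers passed the filter, which is a mean over all libraries. Their summed level was 588660 and 586990 in WT and 651372 and 548394 in Tfam+/-. Of the 14, 6 were below WT in both libraries and 4 above, with a median of -0.06. Limma called 0 of them (2 at an unadjusted p under 0.05), and with the shared term 8 were called lower and 3 higher.

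**Figure D5:**
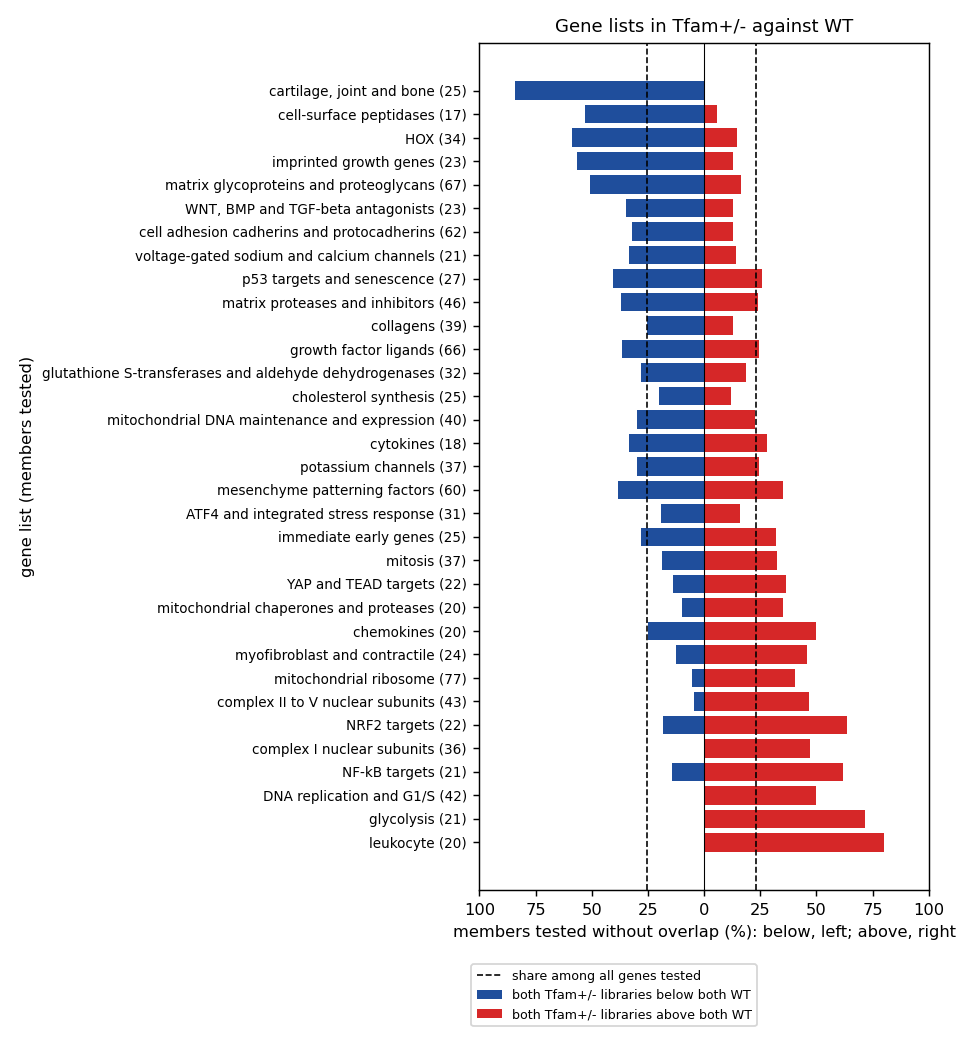
Share of each gene list (at least 15 members tested; number in parentheses) whose Tfam+/- libraries both lay below (blue, left) or above (red, right) both WT libraries, in percent of members tested. Dashed lines give the shares over all genes, 25.5% below and 23.3% above; cartilage, joint and bone genes reach furthest left, with 21 of 25, and leukocyte genes furthest right, with 16 of 20.

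Genes of mitochondria showed no common fall. Over all genes 23.3% were above WT in both libraries and 25.5% below, and 8.20% were called lower with the shared term. Nuclear subunits of complex I were above WT in both libraries in 17 of 36 and below in 0, with a median of 0.19 that became 0.03 with the shared term and 0.04 without Tfam+/- replicate 1. Limma called 0 of them, with 0 at an unadjusted p under 0.05 and 0 called with the shared term. The subunits of complexes II to V (20 of 43 above, 2 below, median 0.17, shared term 0.04) and the mitochondrial ribosome (31 of 77 above, 4 below, 0.17 and 0.04) showed the same dependence on that library. Ndufa11, a complex I subunit, was at 484 and 537 in WT and at 911 and 541 in Tfam+/- (0.46 ± 0.28, adjusted p = 0.56), so that only replicate 1 was well above WT. Genes for the upkeep and expression of mitochondrial DNA, the pathway of TFAM itself, were split, with 9 of 40 above and 12 below and a median of 0.02. After Tfam, the widest differences without overlap there were Slc25a36, a pyrimidine nucleotide carrier, at 1089 and 1076 against 425 and 904 (-0.80 ± 0.44), and Tfb2m, a mitochondrial transcription factor, at 795 and 728 against 403 and 669 (-0.55 ± 0.28), neither called; Mterf1a (-0.69) overlapped. The median moved between -0.02 and 0.04 with 1 library left out. Targets of ATF4 in the integrated stress response, known to respond to mitochondrial damage, were above in 5 of 31 and below in 6, with a median of 0.03 (-0.06 without Tfam+/- replicate 1) and 0 calls by limma (2 at an unadjusted p under 0.05, and 7 lower with the shared term).

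Glycolysis genes and leukocyte genes leaned above WT, in both libraries in 15 of 21 and in 16 of 20, with 0 below in either list. Over all genes 23.3% were above and 25.5% below. Limma called 0 in either list in the fit of all 8 libraries (4 and 10 at an unadjusted p under 0.05), while 12 glycolysis genes and 7 leukocyte genes were called higher with the shared term (7.39% of all genes). The glycolysis median was 0.30, and 0.13 without Tfam+/- replicate 1. Aldoa, an aldolase, was at 10690 and 10463 in WT and at 15601 and 12103 in Tfam+/- (0.38 ± 0.15, limma, adjusted p = 0.55). For leukocytes the median was 0.43, and 0.27 without that library. The summed level of the 20 markers was 6825 and 6769 in WT against 9164 and 8042 in Tfam+/-. The sum was 4449 and 4306 for Zbp1-/- and 3478 and 3534 for Tfam+/-Zbp1-/-, and no marker was at 0 in all libraries. C1qb, a complement subunit made by macrophages, was at 380 and 414 against 792 and 541 (0.72 ± 0.20, adjusted p = 0.30). Macrophage transcripts thus stood above WT in the same libraries as the interferon-stimulated genes, and their part in the rises was not tested. DNA replication genes were above in 21 of 42 and below in 0 (median 0.17, and 0.11 without Tfam+/- replicate 1), and mitosis genes in 12 and 7 of 37 (-0.02), with 0 called by limma in either (2 and 0 at an unadjusted p under 0.05).

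Outside the interferon list 143 genes lay below WT in both libraries by a log2 of at least 1, among them 14 of the 22 falls. Of the 143, 122 were lower in Tfam+/- replicate 1 than in replicate 2, where 6683 of all 13267 genes were. A called shared term was carried by 99 of them and by 8669 of all genes. Over all genes, 1.09% lay below by this much and 1.20% above. The widest that were called only with the shared term included Ism1, a secreted angiogenesis inhibitor, at 16.8 and 16.1 in WT and 4.30 and 3.97 in Tfam+/- (-1.77 ± 0.31, limma, adjusted p = 0.086, and 0.012 with the shared term). Ntng1, the axon guidance ligand netrin-G1, was at 45.5 and 38.0 against 9.85 and 13.7 (-1.75 ± 0.29, adjusted p = 0.062, and 9.2e-04 with the term). In both the Tfam+/- libraries were close to each other and the lowest of the 8. Others disagreed between libraries: Asic1, an acid-sensing channel, was at 73.5 and 11.9 in WT against 8.32 and 7.51, so WT replicate 1 alone was high. Frmd3 was at 46.2 and 46.7 against 27.7 and 5.94, and Omd, osteomodulin, at 127 and 164 against 26.5 and 87.8. Nkapl, Prr9, Slc14a2, Lix1 and Comp completed the 10, at -2.18, -1.74, -1.65, -1.60 and -1.52 on the log2 scale. Between Tfam+/-Zbp1-/- and Zbp1-/-, 34 of the 143 were below 0 in the fit of all 8 libraries and 50.35% with the shared term, where 47.22% of all genes were.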

How the data were processed

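Total RNA of 8 libraries, 2 for each of 4 genotypes, was sequenced; genotypes are those of the sample labels. The values are the authors' deposited normalized counts per gene, a non-negative signal with decimals. The submitters' processing notes and the series' design text name STAR 2.6.1a and Salmon, the BaseSpace applications RNAseq Alignment 2.0.0 and RNA-seq Differential Expression 1.0.0, and mm10 with RefSeq genes. No source used here gives the scaling or the use of strand, so count tests were not run, and genes that overlap or have near-identical copies are uncertain.

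Tests used log2(normalized count + 1), on which fold changes of low genes are understated, for genes averaging 10 or more over all libraries. limma 3.58.1 in R 4.3.3 (lmFit, eBayes with a trend) was fitted to the 4 genotypes of all 8 libraries (4 residual and 2.77 prior degrees of freedom) and p-values were adjusted by Benjamini-Hochberg over 13267 genes. Errors are SE from that fit. An exact permutation test of 2 against 2 libraries cannot go below p = 0.333 and was not used. A gene was called at an adjusted p under 0.05. The script was tested on simulated data. The named genes were Tfam and Zbp1, every called fall, the 12 largest called rises outside the interferon list and the 4 largest on it, the 10 largest unlisted falls called only with the shared term, and up to 4 members of each list with the largest change without overlap; entries with near-identical copies were left out of the rule. The members and all 41 gene lists were chosen with earlier results of these data known.

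Same-numbered libraries were not paired: the correlation of their replicate differences was -0.06 between WT and Tfam+/-. Names turned into dates (26, of which 20 were tested) are not named. One member of the cartilage list is counted with the list but not reported here. Symbols matched RefSeq (GRCm38.p6) for 24407 names, and coordinates are 1-based. At the level filter Saxo2 and Lgals4 were just inside (mean 10.0052) and Spink2 (9.99933) and Cacna1d (9.99167) just outside.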

Additional observations from a re-analysis of the deposited data

Results flagged for a closer look

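For 23 of the genes named in the text, the change with loss of 1 Tfam allele differed between cells with and without Zbp1, by limma's interaction (adjusted p under 0.05, called in 0.663% of all genes). Of these, 20 were chosen by their call between Tfam+/- and WT, which enters the interaction, so only the change between Tfam+/-Zbp1-/- and Zbp1-/- is separate from the choice. The interaction is that change minus the change from WT, on the log2 scale. Among genes that fell it was 3.89 in Cxcl15, 2.78 in Enpp2, 2.05 in Abi3bp, 1.94 in Enpp1, 1.88 in Enpep, 1.85 in Frmd5, 1.81 in Erg, 1.43 in Sim2, 1.35 in Col10a1 and 1.07 in Fat4. Among rises outside the interferon list it was -3.57 in AW011738, -1.92 in Agrn, -1.68 in Apod, -1.58 in Gap43, -1.50 in Mmp3 and -1.03 in Tenm4. On the list it was -4.11 in Usp18, -3.54 in Oasl2, -3.49 in Isg15 and -2.59 in Rtp4. The other 3, not called between Tfam+/- and WT, were Adcyap1 (2.96), Hoxd13 (2.71) and Prg4 (2.66). Adcyap1 and Hoxd13 were named for the size of their change from WT within their lists, and Prg4 after its values were seen. The interactions of these 3 are thus not separate from the choice either.

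Each of the 23 lost this call without WT replicate 1, WT replicate 2, Zbp1-/- replicate 2 or either Tfam+/-Zbp1-/- library. Over all fits with 1 library left out, the values stayed between 3.51 and 4.27 for Cxcl15 and 2.57 and 2.99 for Enpp2. They stayed between 1.72 and 2.04 for Enpep and -1.65 and -1.51 for Gap43. With 2 libraries per genotype no gene was examined for a single outlying library.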

How the results depend on the processing

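The counts of called genes moved with the estimate of spread. The fit of 6 libraries holds 1 Tfam+/- and 1 Zbp1-/- library and takes its spread from WT and Tfam+/-Zbp1-/- alone. For genes higher in Tfam+/- (75) they were 26 with a replicate block, 981 with the shared term, 926 in the 6 libraries without the shifted pair and 27 when only the groups compared were fitted. For genes lower (22) they were 14 with no level filter, 2 with the block, 1088, 1123 and 1. For Tfam+/-Zbp1-/- against Zbp1-/- (55) they were 26 with no filter, 1 with the block, 3155, 3102 and 1. For the interaction (88) they were 47 with no filter, 0 with the block (1381 at an unadjusted p under 0.05), 2240 and 2534. With 1 library left out, where the lone library is assumed to vary like the others, the counts were 12 to 77 higher, 0 to 21 lower, 0 to 69 and 0 to 126. limma called 0 genes lower without WT replicate 1 or 2 (528 and 544 at an unadjusted p under 0.05).

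No value changed sign among the named genes that were called. All 22 falls kept their call with the shared term, but that fit called 1088 genes lower and is little check of them. With a pseudocount of 5, 20 of the 22 kept their call, and with 0.1 all 22 did. With a mean of at least 50, 16 of the 19 kept it. The falls kept their call in 21 genes after rescaling by trimmed means of M-values. They kept it in 19 with a prior without trend and in 13 with no filter. They kept it in 7 and 10 genes without Tfam+/- replicate 1 and 2, in 17 without either Zbp1-/- library and in 2 without either Tfam+/-Zbp1-/- library. The numbers of the replicates mark no pairing in the labels, and the block, which costs 1 degree of freedom, left 2 falls and 0 of the 11 unlisted rises called. Samples at 2 per genotype and unknown read depth limit what low genes such as Cxcl15 can show.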

Other observations

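Other lists fixed for the comparison gave the following values. Over all genes 23.3% were above WT in both libraries and 25.5% below, and 7.39% were called higher with the shared term. Targets of NF-kB were above WT in 13 of 21 and below in 3, with a median of 0.21 (up to 0.32 with 1 library left out) and 0 called by limma (9 higher with the shared term); Bcl2a1b was at 17.6 and 23.3 in WT and at 52.8 and 50.7 in Tfam+/-. Matrix metalloproteinases Mmp9 (48.0 and 37.3 against 105 and 99.7, 1.26 ± 0.28, adjusted p = 0.18) and Mmp10 (12.9 and 26.5 against 43.1 and 52.7, 1.32 ± 0.48, adjusted p = 0.49) stood above WT beside Mmp3 without a call. Targets of p53 were below in 11 of 27 and above in 7 (median -0.02), cholesterol synthesis genes in 5 and 3 of 25 (0.02), and NRF2 targets in 4 and 14 of 22 (0.13). Adcyap1, the neuropeptide PACAP, was at 31.8 and 38.7 against 12.1 and 16.4 (-1.26 ± 0.22, adjusted p = 0.086), and rose from 30.0 and 31.9 to 102 and 103 in the cells without Zbp1 (1.70 ± 0.22, adjusted p = 0.046; 1.66 to 1.74 with 1 library left out, uncalled without 6 of the 8 in turn).

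The 22 falls lay on 13 chromosomes with at most 3 on any, and their median gene length was 54027 bases against 24254 for all genes. Zfp965, chosen after its values were seen, was listed at 0 in Tfam+/- replicate 1 alone, against 77.5 in replicate 2 and 95.0 to 124 in the other 6 libraries; zinc finger genes of this kind can have near-identical copies, and its difference of -3.47 ± 1.72 was not called.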
